A study of Mus musculus with 6 samples.

Results

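The claudins, cadherins and associated proteins that hold neighbouring epithelial cells together were examined in pubertal mammary epithelial cells of *fat-1* and wild-type (WT) mice. The 10 genes were chosen by symbol: the claudins *Cldn1*, *Cldn3*, *Cldn4*, *Cldn7* and *Cldn8*, occludin (*Ocln*), the scaffold *Tjp1*, E-cadherin (*Cdh1*), P-cadherin (*Cdh3*) and the adhesion molecule *Epcam*. They occupied 10 of the 61880 rows of the deposited count matrix, and 12 rows when every row of the same assembled locus was counted. RNA was sequenced from 6 samples, 3 of each genotype, and each sample pooled inguinal mammary glands of several female FVB/NJ mice aged 6 to 8 weeks. The *fat-1* mice carried a transgene from *Caenorhabditis elegans* encoding an *n*-3 desaturase, so that they made *n*-3 polyunsaturated fatty acids (PUFA) throughout the body from *n*-6 PUFA, while WT mice lacked it. Both genotypes stayed on their parental diet for life, a modified AIN93G diet with 10% fat by weight from safflower oil, which is rich in *n*-6 PUFA. The transgene acts in all tissues, not only in the epithelium, and the epithelial cells were released by enzymatic digestion rather than by cell sorting.

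Tight junctions seal the space between neighbouring epithelial cells near their apical side, and claudins form the strands that decide which ions and solutes pass. Adherens junctions lie below them and join cells through cadherins, whose cytoplasmic tails bind catenins and through these the actin cytoskeleton. In the mammary gland E-cadherin is typical of the luminal layer and P-cadherin of the basal (myoepithelial) layer, and both layers are present in the growing ducts of puberty.

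All 10 genes were detected in every sample. None of them differed between *fat-1* and WT mice at an adjusted *p* of 0.05 or under, as was the case for all tested loci (0% called), and the values of the genotypes overlapped for each of the 10, while they did not overlap for 4.15% of all loci. For each of the 10 genes, the genotype means differed by less than the SD within either genotype. Over all 6 samples together, the highest sample exceeded the lowest by 1.89-fold for *Tjp1* and by 10.1-fold for *Cldn8*, with the other 8 genes between these. For every one of the 10 genes, *fat-1* sample 1 and WT sample 1 were the highest pair and *fat-1* sample 2 and WT sample 3 the lowest pair. The keratins of the epithelium had the same order of samples, and the leukocyte gene *Ptprc* had the reverse order within each genotype.

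Levels are given as CPM, the count of a gene scaled to a fixed library total, after TMM normalization, with all rows of a locus added together. The total counts per sample were between 204539059 and 232148824, and the rarest gene, *Cldn8*, still had 60 to 604 counts, so counting error was small beside the differences between samples. The label of the cells as epithelial was compared with marker genes, for which the symbol row alone was taken where a locus holds another named gene, such as *Cd79a* and *Cd68*. All 10 luminal markers and 6 of 8 basal markers were above 1 CPM in every sample, but so were all 6 fibroblast, all 6 endothelial, all 4 Schwann cell and 7 of 8 immune markers, and of 5 adipocyte markers only *Fabp4*, while *Adipoq*, *Plin1*, *Lep* and *Cfd* were under 1 CPM in every sample. The luminal keratins *Krt8* and *Krt18* together were at 1807, 404 and 659 CPM in the *fat-1* series of samples and at 1291, 762 and 418 CPM in the WT series, here and throughout in the order of samples 1, 2 and 3. The basal keratins *Krt5* and *Krt14* together, the latter in a locus shared with *Krt16*, were at 299, 56.0 and 118 CPM and at 192, 103 and 56.2 CPM. *Ptprc*, the common leukocyte antigen, was at 166, 407 and 274 CPM and at 157, 201 and 398 CPM. The summed immune markers were at 349 to 878 CPM in *fat-1* and 352 to 906 CPM in WT samples, and the summed fibroblast markers at 1551 to 6065 CPM and 3332 to 5617 CPM. In such bulk samples fewer epithelial cells and less RNA of a gene per epithelial cell cannot be told apart.

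**Figure D1:**
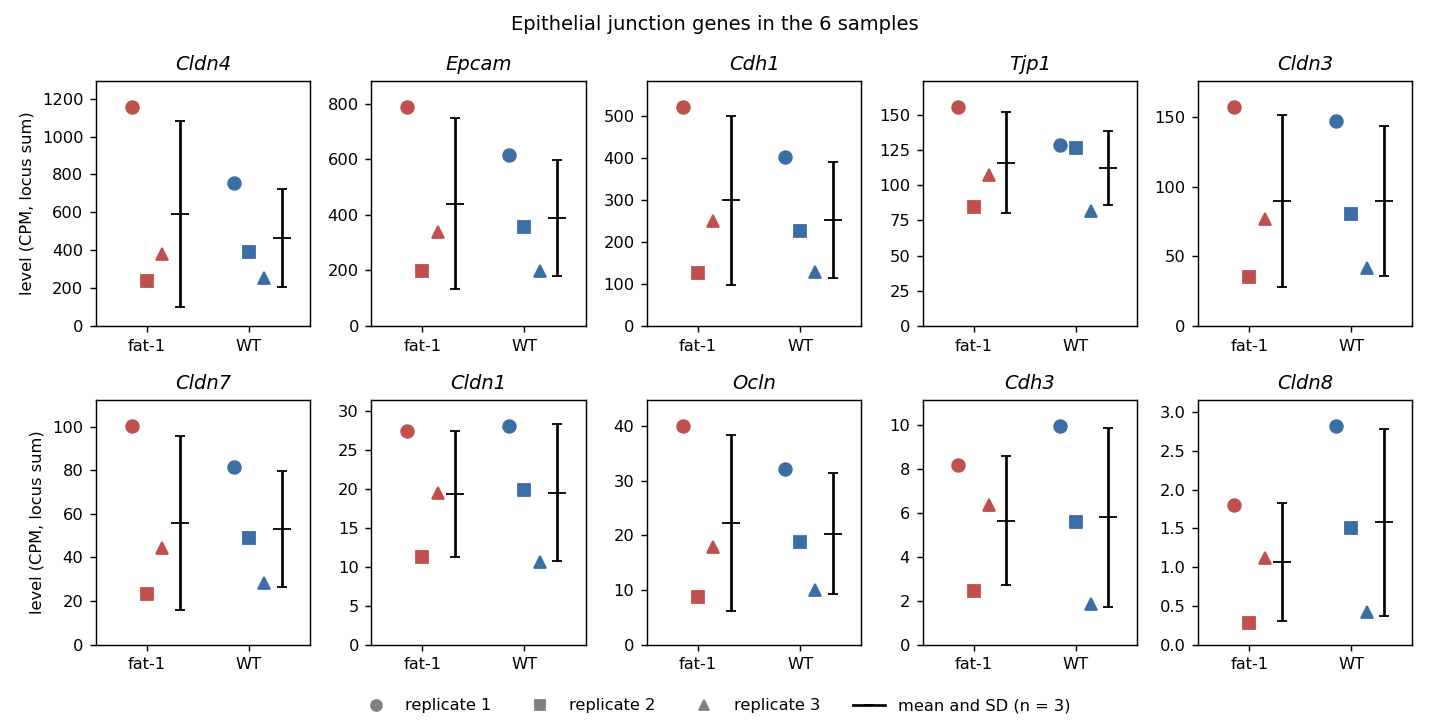
Level of each junction gene (vertical axes, CPM of the whole locus, each axis starting at 0) in the 3 *fat-1* samples (red) and 3 WT samples (blue). The symbols mark the replicate, and the black bar is the mean with its SD (n = 3). In every panel both circles, the samples numbered 1, lie above all other points, for example *Cldn4* at 1155 and 752 CPM against at most 390 CPM elsewhere.

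*Cldn4* was the most abundant claudin. This claudin is found in many tight epithelia and also binds a bacterial toxin, like *Cldn3*. In *fat-1* mice it was at 1155, 237 and 382 CPM, and in WT mice at 752, 390 and 253 CPM. The highest *fat-1* sample was above all WT samples and the lowest *fat-1* sample was below all of them. The mean was 591 ± 493 CPM in *fat-1* and 465 ± 258 CPM in WT mice (SD, n = 3), and the log2 fold change was 0.35 with a standard error (SE) of 0.66 and a 95% interval from −1.24 to 1.94 (edgeR quasi-likelihood test, adjusted *p* = 1.00). The interval therefore spanned differences in both directions, as it did for the 9 other genes.

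*Cldn3*, which lies beside *Cldn4* on chromosome 5, reached 157, 35.2 and 77.1 CPM in *fat-1* mice and 147, 80.2 and 41.4 CPM in WT mice. Its means were nearly the same, 89.8 ± 62.0 CPM in *fat-1* and 89.7 ± 53.7 CPM in WT mice (SD, n = 3), and its log2 fold change was 0.00 (SE 0.64, 95% interval −1.53 to 1.54). *Cldn3* at chr5:134986214-134987472 and *Cldn4* at chr5:134945119-134946934 (GRCm38) are 39.3 kb apart on opposite strands, with no annotated gene between them. The samples numbered 1 were again the highest pair for both neighbours.

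*Cldn7* (chr11:69964779-69967885), a claudin found along the lateral membrane as well as in the tight junction, was at 100.5, 23.0 and 44.2 CPM in *fat-1* and at 81.6, 49.0 and 28.4 CPM in WT samples. Its log2 fold change was 0.08 (SE 0.60, 95% interval −1.36 to 1.52). *Cldn1* (chr16:26356642-26371841), the sealing claudin best known from the skin barrier, was at 27.3, 11.2 and 19.4 CPM and at 28.1, 19.9 and 10.6 CPM. Its samples differed by 2.66-fold between the highest and the lowest, less than those of *Cldn3*, *Cldn4*, *Cldn7* and *Cldn8*, and its log2 fold change was −0.01 (SE 0.44, 95% interval −1.07 to 1.05).

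*Cldn8* (chr16:88560828-88563183), known for its part in the tight junctions of kidney tubules, was the lowest of the 10 genes. It was at 1.80, 0.280 and 1.11 CPM in *fat-1* and at 2.82, 1.51 and 0.413 CPM in WT samples. WT sample 1 was the highest here, not *fat-1* sample 1. The log2 fold change of −0.57 was the largest in size among the 10 genes, but its SE was 0.82 and its 95% interval ran from −2.54 to 1.4.

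Occludin, the first membrane protein found in tight junctions (chr13:100496507-100552718), was at 40.1, 8.76 and 17.8 CPM in *fat-1* and at 32.2, 18.8 and 10.1 CPM in WT samples (log2 fold change 0.13, SE 0.63, 95% interval −1.39 to 1.64). *Tjp1* (chr7:65296165-65527781) encodes ZO-1, the scaffold that ties claudins and occludin to actin, and which endothelial and other cells also make. It was at 155, 84.9 and 108 CPM in *fat-1* and at 129, 126 and 82.04 CPM in WT samples. With 1.89-fold between the highest and the lowest sample it was the most even of the 10 genes, and it had the narrowest interval of the genotype difference, with a log2 fold change of 0.05 (SE 0.27, 95% interval −0.61 to 0.70). WT samples 1 and 2 were nearly equal for *Tjp1*, which was not seen for the claudins or occludin.

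E-cadherin, the main adhesion receptor of adherens junctions, was at 520, 126 and 250 CPM in *fat-1* and at 402, 226 and 128 CPM in WT samples. Its mean was 299 ± 201 CPM in *fat-1* and 252 ± 139 CPM in WT mice (SD, n = 3), with a log2 fold change of 0.25 (SE 0.59, 95% interval −1.19 to 1.68). P-cadherin was at 8.15, 2.42 and 6.32 CPM and at 9.94, 5.55 and 1.84 CPM (log2 fold change −0.04, SE 0.66, 95% interval −1.64 to 1.57). *Cdh3* (chr8:106510891-106557297) and *Cdh1* (chr8:106603351-106670246) lie 46.1 kb apart on the same strand, with 2 annotated genes between them, 1 of which is protein coding. Both cadherins were lowest in *fat-1* sample 2 and WT sample 3, but *Cdh3* was highest in WT sample 1 and *Cdh1* in *fat-1* sample 1.

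*Epcam* (chr17:87635979-87651129), a cell adhesion molecule of epithelia that binds and stabilizes claudins, was at 787, 197 and 339 CPM in *fat-1* and at 614, 356 and 199 CPM in WT samples. Its mean was 441 ± 308 CPM in *fat-1* and 390 ± 210 CPM in WT mice (SD, n = 3). The log2 fold change was 0.18 (SE 0.59, 95% interval −1.25 to 1.61), again with overlapping genotypes.

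The genotype test was fitted to all 24061 loci that passed the filter on low counts, and all 10 genes passed it. At an adjusted *p* of 0.05 or under, 0 of the 10 junction genes and 0 of all loci (0%) were called by the edgeR quasi-likelihood test. At an unadjusted *p* of 0.05 or under, 0 of the 10 junction genes were called, against 274 loci (1.14%), 115 of them higher (0.478%) and 159 lower (0.661%) in *fat-1* mice. DESeq2 called 0 of the 10 genes and 8 loci, and edgeR's exact test 0 of the 10 genes and 6 loci. The values of the genotypes did not overlap for 0 of the 10 junction genes, against 998 loci (4.15%). By sign alone, 6 of the 10 genes were higher in *fat-1* mice, against 50.6% of all loci, with a median log2 fold change of 0.06 against 0.00. The exact two-sided permutation test of each gene gave *p* between 0.7 and 1, where 3 against 3 samples cannot go below 0.1. Since each sample was a pool, the *p*-values measure the spread between pools, not between single mice.

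The rank order of the genes by abundance was nearly the same in all samples. On the scale of CPM per kilobase of exon, which allows levels of different genes to be compared, the median over the 6 samples was 212 for *Cldn4*, 158 for *Epcam*, 62.5 for *Cldn3*, 52.0 for *Cdh1*, 23.9 for *Cldn7*, 14.96 for *Tjp1*, 4.33 for *Ocln*, 4.05 for *Cldn1*, 1.35 for *Cdh3* and 0.555 for *Cldn8*. This order held in every sample, except that *Ocln* and *Cldn1* changed places in *fat-1* sample 2. *Cldn4* ranked above *Epcam* in 6 of 6 samples although their ranges over the samples overlapped, at 131 to 636 and at 89.6 to 359 CPM per kilobase. Only *Ocln* and *Cldn1* were neighbours in this order that could not be separated in each sample.

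Across the 6 samples the junction genes rose with the keratins. Within both genotypes, 10 of 10 genes had the order of the luminal keratins and the reverse of the order of *Ptprc*. The share of all loci with these orders within both genotypes was not counted. By a stricter rule, the keratin order, a locus had the same highest pair and the same lowest pair as the keratins across the 6 samples. All 10 genes had the keratin order, against 2727 of all tested loci (11.3%), and 1759 loci (7.31%) had the opposite order. On log2(CPM + 1), Pearson's *r* over the 6 samples was 0.89 to 0.997 with the luminal keratins, 0.868 to 0.997 with the basal keratins and −0.974 to −0.902 with *Ptprc*. Spearman's rho was 1 with the luminal keratins for *Cldn3*, *Cldn4*, *Cldn7*, *Ocln* and *Epcam*. Of the 30 relations, 30 had an adjusted exact permutation *p* of *r* of 0.05 or under, the largest being 0.0347, and 28 had one of rho, the exceptions being *Cldn1* with the basal keratins and *Cdh3* with the luminal keratins at 0.0583. Without the 2 samples farthest from the median marker level, *r* was at least 0.94 with the luminal keratins, at least 0.866 with the basal keratins and at most −0.724 with *Ptprc*. The smallest *p* that 6 samples allow in the exact permutation test is 0.00139 for *r* and 0.00278 for rho. A gene and the markers were read from the same libraries. The marker levels also ran together, with *r* to the luminal keratins of 0.987 for *Krt5*, 0.986 for *Krt14* and −0.944 for *Ptprc*. The 30 relations are therefore not independent of one another, and the share of all loci with such *p*-values was not counted.

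**Figure D2:**
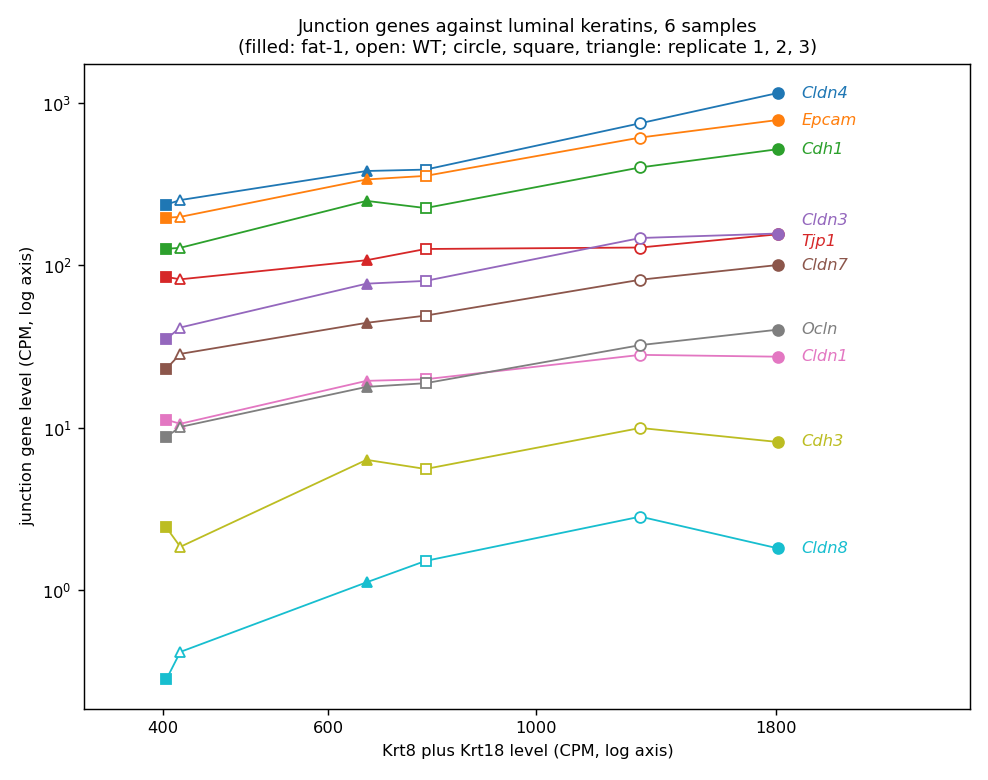
Level of each junction gene (vertical log axis, CPM) against the summed level of *Krt8* and *Krt18* (horizontal log axis, CPM) in the 6 samples, joined by a line per gene; filled symbols are *fat-1* and open symbols WT. Most lines run parallel over the 4.48-fold range of the keratins, while *Tjp1* and *Cldn1* are flatter, with slopes of 0.401 and 0.668 on the log scales, and *Cldn8* is steeper over the lower samples.

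When each gene was set against the luminal keratin level of its own sample, an alternative scale chosen after seeing the data, the junction genes fell into those that kept a nearly fixed ratio and those that did not. *Epcam* was at 43.6, 48.8 and 51.4% of *Krt8* plus *Krt18* in *fat-1* and at 47.6, 46.7 and 47.7% in WT samples, a range of 1.18-fold against 4.0-fold for its CPM. The range of the ratio was 1.22-fold for *Cldn7*, 1.24-fold for *Ocln*, 1.25-fold for *Cldn4*, 1.32-fold for *Cdh1* and 1.34-fold for *Cldn3*. These 6 genes had CPM ranges of 4.0 to 4.87-fold, and slopes against the keratins of 0.943 to 1.03 on log scales.

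*Cldn1*, *Cdh3*, *Tjp1* and *Cldn8* did not keep a fixed ratio. *Tjp1* was at 8.60, 21.0 and 16.3% of the luminal keratins in *fat-1* and at 9.98, 16.6 and 19.6% in WT samples, so that the samples with the most keratin had the lowest ratio. *Cldn1* was at 1.51, 2.77 and 2.94% and at 2.17, 2.60 and 2.53%, with the lowest ratio in *fat-1* sample 1. *Cdh3* was at 0.451, 0.601 and 0.959% and at 0.770, 0.729 and 0.440%, and *Cldn8* at 0.0997, 0.0693 and 0.168% and at 0.219, 0.198 and 0.0990%. The range of the ratio was 1.94-fold for *Cldn1*, 2.18-fold for *Cdh3*, 2.45-fold for *Tjp1* and 3.16-fold for *Cldn8*. The ratio did not separate the genotypes for any of the 10 genes in the exact permutation test, with two-sided *p* between 0.3 and 1.

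**Figure D3:**
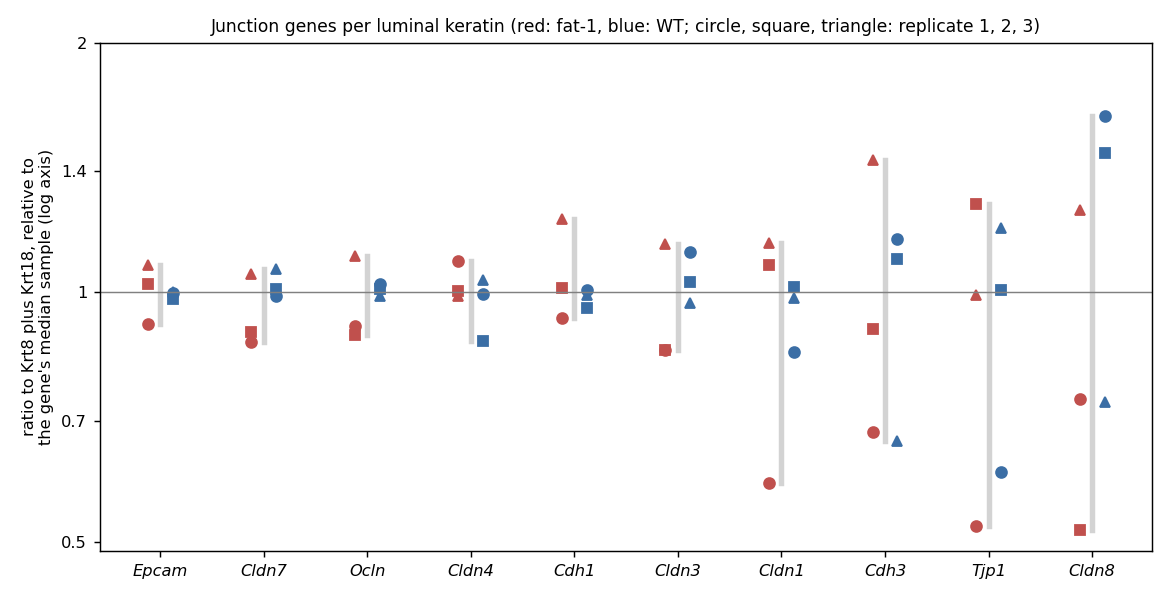
Ratio of each junction gene to *Krt8* plus *Krt18* in each sample, divided by the gene's median sample (vertical log axis); genes are ordered by the range of the ratio, red is *fat-1* and blue WT. From *Epcam* to *Cldn3* the 6 samples stay within a range of 1.34-fold, and from *Cldn1* to *Cldn8* they spread over 1.94 to 3.16-fold, with both genotypes overlapping.

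The genotype difference was also fitted with the mean level of *Krt8*, *Krt18*, *Krt5* and *Krt14* as a covariate. The SE then fell from between 0.27 and 0.82 to between 0.06 and 0.34. *Cldn7* had a log2 fold change of −0.21 (SE 0.07, 95% interval −0.38 to −0.03) and was the 1 junction gene under the unadjusted threshold, against 785 loci (3.26%) in this fit, 425 of them lower in *fat-1* mice (1.77%). It did not pass the adjustment over all loci (edgeR quasi-likelihood test, unadjusted *p* = 0.0284, adjusted *p* = 1.00). *Cldn7* was lower per keratin in *fat-1* samples 1 and 2 than in every WT sample, but *fat-1* sample 3 lay within the WT values. *Cldn8* followed at −0.80 (SE 0.34, 95% interval −1.63 to 0.02) and *Cldn3* at −0.23 (SE 0.11, 95% interval −0.50 to 0.04). For *Cdh1* the interval ran from −0.19 to 0.21, for *Epcam* from −0.22 to 0.09, for *Cldn4* from −0.23 to 0.23 and for *Tjp1* from −0.28 to 0.20. A sample's keratin level was not assigned by the design.

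**Figure D4:**
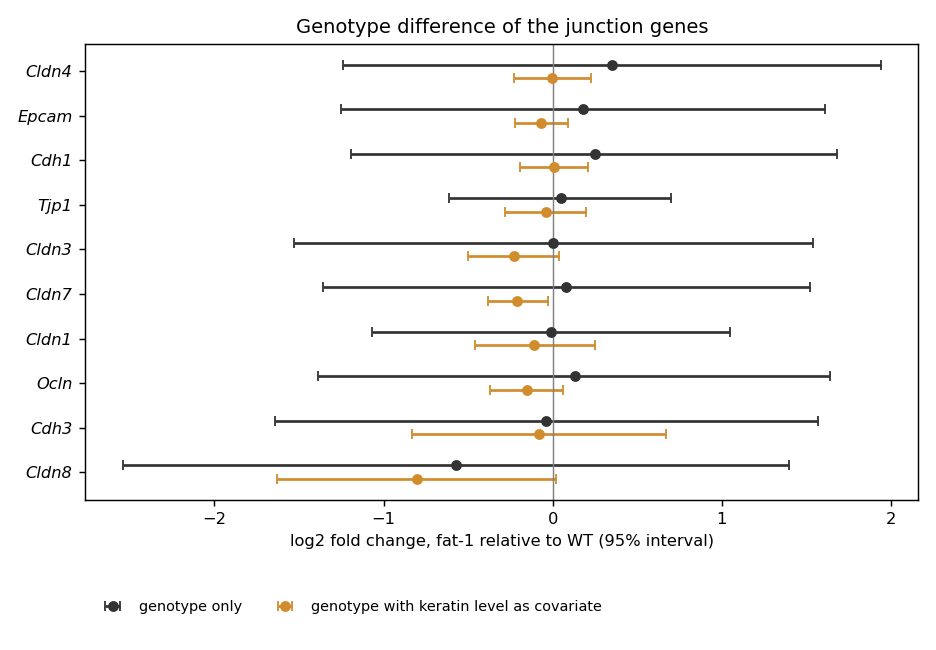
Log2 fold change of each junction gene, *fat-1* relative to WT, with its 95% interval (horizontal axis), from the fit with genotype only (black) and with the keratin level as a covariate (orange). The black intervals all cover 0, and the orange interval leaves 0 only for *Cldn7*, at −0.38 to −0.03, before adjustment over all loci.

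The counts of *Cdh1* and *Tjp1* were divided over a pair of rows each, one with the gene symbol and one without. The unnamed row of the *Cdh1* locus held 60959, 0 and 0 counts in *fat-1* samples 1 to 3 and 48545, 0 and 4875 counts in WT samples 1 to 3. This was 55.6% of the locus in *fat-1* sample 1, 56.5% in WT sample 1 and 18.5% in WT sample 3, and 0% in the others. There a count of 0 allows at most 0.0129 to 0.0141 CPM by counting error alone. That limit does not cover how the reads of the locus were divided between its rows. The symbol row alone therefore had another order of samples, at 232, 127 and 249.3 CPM in *fat-1* and 175, 226 and 104 CPM in WT samples, with *fat-1* sample 3 the highest. Its ratio to the luminal keratins varied 2.94-fold, against 1.32-fold for the sum of both rows. Its log2 fold change was 0.27 (SE 0.37). The unnamed row of *Tjp1* held between 25.97% and 56.9% of the locus in each sample, and the symbol row alone varied 2.65-fold against 1.89-fold for the sum. A row at 0 in at least one sample and at 1000 or more counts in another was found in 159 of the 3191 loci (4.98%) with more than 1 row and a mean of at least 10000 counts. As rows, 0 of the 10 junction genes passed the unadjusted threshold, against 678 of 30683 rows (2.21%), 329 of them higher (1.07%) and 349 lower (1.14%) in *fat-1* mice.

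**Figure D5:**
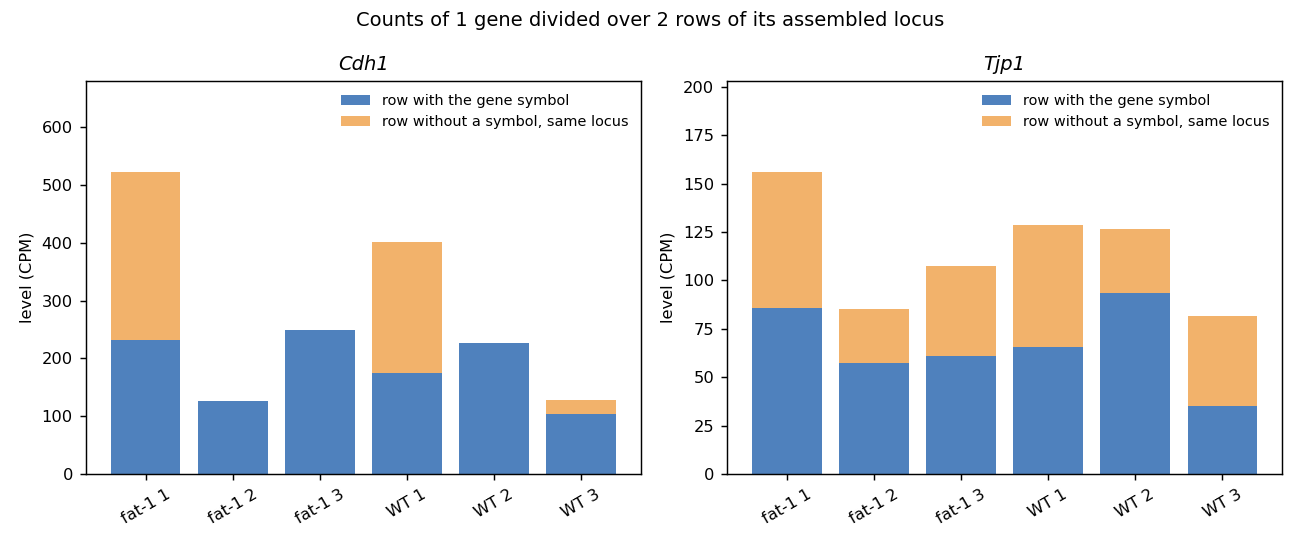
Level (vertical axis, CPM) of the row that carries the symbol (blue) and of the unnamed row of the same locus (orange), stacked for each sample, for *Cdh1* and *Tjp1*. For *Cdh1* the orange part is present only in *fat-1* sample 1, WT sample 1 and WT sample 3, at 290, 227 and 23.7 CPM.

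The other genes of epithelial junctions were taken from lists. Of all loci, 1.14% passed the unadjusted threshold and 11.3% had the keratin order. At a share of 1.14%, a count of 0 in lists this short says little about their genes. Of 16 other tight junction genes, 0 passed the unadjusted threshold and 11 had the keratin order of samples. The 5 without it were *Cgnl1*, *Jam2*, *Jam3*, *Mpdz* and *Patj*. *Lsr*, counted among the 11, lies in a locus that also holds *Hamp* and *Usf2*. Its symbol row alone kept the keratin order, at 54.6, 5.64 and 10.4 CPM in *fat-1* and 23.0, 17.8 and 6.14 CPM in WT samples. Of 11 desmosome genes, 0 passed and 9 had the keratin order, among them desmoplakin (*Dsp*), which links desmosomes to keratin filaments, at 226, 38.6 and 81.8 CPM and 169, 92.0 and 44.9 CPM. Of 10 catenin, nectin and linked genes, 0 passed and 8 had the keratin order. Beta-catenin (*Ctnnb1*), which also acts in Wnt signalling in many cell types, did not, and varied only 1.53-fold. *Ctnnd1*, counted among the 8, lies in a locus that also holds *Selenoh* and *Tmx2*. Its symbol row alone did not have the keratin order, at 163, 101 and 131 CPM in *fat-1* and 170, 176 and 74.3 CPM in WT samples. Of 11 polarity genes, 0 passed and 8 had the keratin order.

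Most of the other claudins and cadherins had another order of samples, as did most loci, of which 11.3% had the keratin order and 7.31% the opposite one. Of 11 other claudins tested, 4 had the keratin order (*Cldn6*, *Cldn10*, *Cldn12* and *Cldn23*), and the endothelial *Cldn5* was at 14.9, 19.7 and 22.6 CPM in *fat-1* and 19.3, 23.7 and 23.7 CPM in WT samples. *Cldn2*, a pore-forming claudin, was the 1 gene of this list under the unadjusted threshold, against 1.14% of all loci (0.661% lower in *fat-1* mice). Its log2 fold change was −1.37 (SE 0.37, edgeR quasi-likelihood test, unadjusted *p* = 0.00914, adjusted *p* = 1.00), from only 9 to 12 counts in *fat-1* and 17 to 33 counts in WT samples. Of 14 other cadherins tested, 0 passed, *Cdh13* had the keratin order, and *Cdh17* and *Cdh22* the opposite one. VE-cadherin (*Cdh5*), the cadherin of endothelium, was at 79.5, 75.0 and 72.8 CPM in *fat-1* and 91.5, 101 and 79.9 CPM in WT samples. The genotypes did not overlap in this locus sum, as in 4.15% of all loci (log2 fold change −0.26, SE 0.11, edgeR quasi-likelihood test, adjusted *p* = 1.00). In the symbol row alone the genotypes overlapped, at 31.98, 48.8 and 37.04 CPM in *fat-1* and 35.1, 78.8 and 56.7 CPM in WT samples. The 6 endothelial markers summed to 147 to 175 CPM in *fat-1* and 148 to 199 CPM in WT samples, and *Pecam1* made up the largest share of the sum. Taken singly, 1 of the 6 (*Kdr*) had a log2 fold change above 0, and the genotypes did not overlap for *Tek*, at 7.44 to 9.07 CPM in *fat-1* and 9.12 to 15.5 CPM in WT samples, and *Tie1*, at 11.8 to 12.4 and 12.6 to 16.7 CPM. *Emcn* had the smallest unadjusted *p* of the list, with a log2 fold change of −0.38 (SE 0.16, edgeR quasi-likelihood test, adjusted *p* = 1.00). The part of endothelial cells in the value of *Cdh5* was not tested.

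Regulators known to act on junction genes were examined in the same way, beside the same shares of all loci (1.14% under the unadjusted threshold, 11.3% in the keratin order). Of 11 epithelial transcription and splicing factors, 0 passed the unadjusted threshold and 10 had the keratin order. *Ehf* was at 93.8, 19.7 and 41.2 CPM in *fat-1* and 77.8, 48.6 and 24.2 CPM in WT samples, and *Grhl2*, a known activator of *Cdh1* and *Cldn4*, at 29.2, 5.64 and 12.4 CPM and 23.6, 15.7 and 7.02 CPM. *Elf5*, a factor of luminal progenitor and secretory cells, was the exception. Of 6 repressors of epithelial junction genes, 0 passed and 0 had the keratin order. *Zeb1*, which represses *Cdh1*, had the opposite order by its locus sum, at 66.4, 105 and 96.1 CPM in *fat-1* and 81.5, 99.0 and 110 CPM in WT samples. Its symbol row alone did not have this order, at 24.7, 49.9 and 47.8 CPM in *fat-1* and 70.2, 48.4 and 52.1 CPM in WT samples. The other repressors had neither order. By locus sums, the opposite order was also that of 7.31% of all loci, of 2 of 6 endothelial markers (*Pecam1* and *Kdr*) and of 6 of 8 immune markers. The symbol row of *Pecam1* alone did not have it, at 3.80, 5.65 and 25.8 CPM in *fat-1* and 3.89, 14.7 and 39.4 CPM in WT samples. Among the 6 immune markers, *Cd79a* shares its locus with *Arhgef1*. The part of such cells in the value of *Zeb1* was not tested. All 6 repressors had a log2 fold change below 0, between −0.63 and −0.05, with no gene under the unadjusted threshold, while 50.6% of all loci were above 0. All 6 fibroblast markers were also below 0, between −0.43 and −0.19, and their part in the values of the repressors was not tested.

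The genes most like the junction genes in pattern were sought among 9023 named loci with a mean of at least 10 CPM. The mean z-score of the 10 genes over the 6 samples had the highest Pearson's *r* with *Gab1* (0.9998), *Irx2* (0.9997), *Lmx1b* (0.9994), *Hipk2* (0.9992) and *Ift43* (0.9988). *Gab1* was at 71.8, 18.5 and 35.5 CPM in *fat-1* and 62.1, 38.8 and 19.1 CPM in WT samples. The locus most like a single gene was *Irx3* for *Epcam*, *Tmprss13* for *Ocln*, *Prss8* for *Cldn7*, *Chmp2b* for *Cldn4*, *Rgl3* for *Cldn3*, *Lrp5* for *Cldn1*, *Ttc21b* for *Cldn8*, *Tom1l2* for *Tjp1*, *Reep6* for *Cdh1* and *Igsf8* for *Cdh3*. With 6 samples and so many candidates, high values of *r* are found for many loci, and these are given as a description.

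The promoters were searched for CACCTG (on the other strand CAGGTG), the E-box bound by the Snail and Zeb repressors, in RefSeq windows of GRCm38.p6 from 250 bases before to 50 bases after the gene start. Of the 10 genes, 7 had a window and some of these had more than one, 9 windows in all. The letters were present in 5 of the 7 genes and 6 of the 9 windows (*Cldn3*, *Cldn4*, *Cldn7*, *Ocln* and *Epcam*), and absent from the windows of *Cldn1* and *Tjp1*. Of the windows of all genes, 6640 of 32851 (20.2%) held them. That share is per window, so the count of genes, where any window sufficed, has no share beside it. The windows of *Ocln* overlap, and a copy of the letters lies in both. With so few windows no enrichment was tested. The 250 bases before the start are shown for the most abundant claudin, for *Epcam*, whose ratio to the keratins varied least, and for *Tjp1*, whose slope against them was the lowest, with the E-box in capitals.
Cldn4 (chr5:134946935-134947184, minus strand): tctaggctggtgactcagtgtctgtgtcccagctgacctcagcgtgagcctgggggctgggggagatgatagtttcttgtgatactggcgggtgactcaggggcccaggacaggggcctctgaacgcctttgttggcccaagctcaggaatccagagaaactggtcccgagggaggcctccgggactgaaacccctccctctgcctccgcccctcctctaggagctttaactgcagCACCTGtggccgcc
Epcam (chr17:87635729-87635978, plus strand): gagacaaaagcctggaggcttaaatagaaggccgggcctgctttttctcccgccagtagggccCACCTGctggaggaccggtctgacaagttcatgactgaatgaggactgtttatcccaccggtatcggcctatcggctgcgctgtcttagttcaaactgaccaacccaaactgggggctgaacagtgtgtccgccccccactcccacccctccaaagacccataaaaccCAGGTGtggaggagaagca
Tjp1 (chr7:65371245-65371494, minus strand): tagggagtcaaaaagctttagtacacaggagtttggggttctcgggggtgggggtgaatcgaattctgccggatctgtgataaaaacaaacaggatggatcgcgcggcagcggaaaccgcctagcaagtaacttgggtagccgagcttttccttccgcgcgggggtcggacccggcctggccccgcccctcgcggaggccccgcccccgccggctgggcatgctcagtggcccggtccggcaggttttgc
In *Cldn4* the first letter of the E-box lies 14 bases before the start, and a second copy begins 11 bases after it. In *Epcam* the copies begin 187 and 19 bases before the start. *Cldn3* holds a copy 31 bases after its start and *Ocln* one 7 bases after its first start. GGGCGG, the letters of a GC box, was in 35.7% of all windows and TATAAA in 13.6%, and *Tjp1*, whose RefSeq start lies inside the GENCODE gene, had GGGCGG but no TATAAA. A match of letters is a description of the sequence, and binding was not measured.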

How the data were processed

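Bulk RNA-Seq covered 6 pools of mammary epithelial cells, 3 per genotype, grouped by the sample labels. The authors used HISAT2 for alignment to GRCm38 and StringTie for assembly and quantification, and the deposited values are estimated counts, whole and not normalized, 1 row per assembled gene. How StringTie's output was turned into counts, the annotation and the use of strand are not given in the sources used here, so overlapping genes are uncertain. The labels name both total RNA and an mRNA library.

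Rows that shared a locus number were added together (53912 loci). Positions, exon lengths and neighbours are from the GENCODE annotation of GRCm38. Levels are CPM on TMM-scaled totals. Genotype was tested with edgeR 4.0.16 in R 4.3.3 (quasi-likelihood, newer fit, filterByExpr, Benjamini–Hochberg, threshold 0.05) on all 24061 loci and, as deposited, all 30683 rows. Standard errors were obtained by dividing log2 fold changes by the root of the F statistic. DESeq2 1.42.0, edgeR's exact test, limma 3.58.1 (voom), other scalings and filters, a replicate block, a keratin covariate and leaving out samples were alternatives. Exact permutation tests and correlations used scipy 1.17.1 on log2(CPM + 1), with Benjamini–Hochberg adjustment over the 30 relations. The fits were tested on simulated data.

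The named genes were the 10 junction genes, fixed marker genes, and from each list the 2 with the smallest *p* and the 2 with the highest mean CPM, from which examples were taken. *Grhl2*, and genes named to complete a count, were chosen after their values were seen. The most similar loci were the 5 with the highest *r* and 1 per gene. The 10 genes, the lists and the tests were chosen with earlier results of these data known. *Cldn25* was not matched to a row. Intervals and limits of 0 counts (3 counts) cover counting error or the spread between samples only.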

Additional observations from a re-analysis of the deposited data

How the results depend on the processing

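None of the 10 junction genes passed the adjusted threshold in any alternative. Of 182 fold changes of these genes under alternatives, 139 kept their direction and 43 reversed. With the keratin covariate, the reversed log2 fold changes were −0.23 for *Cldn3*, −0.0024 for *Cldn4*, −0.21 for *Cldn7*, −0.15 for *Ocln*, −0.04 for *Tjp1* and −0.07 for *Epcam*. With library totals *Cldn3* was −0.00073. With limma-voom, *Cldn3* was −0.07, *Cldn7* −0.06 and *Cdh3* 0.09. Whether samples of the same replicate number belong together is not given in the labels or the paper. The correlations of same-numbered deviations were 0.799, −0.164 and 0.132, and those of different numbers ran from −0.783 to 0.789. With the replicate block *Cldn1* was 0.0018, *Cldn3* −0.06, *Cldn7* −0.04 and *Cdh3* 0.06. Without both samples of the highest keratin level, chosen after seeing the data, *Cldn1* was 0.01, *Cldn3* −0.11, *Cldn4* −0.05, *Cldn7* −0.20, *Ocln* −0.12, *Tjp1* −0.11, *Cdh3* 0.24 and *Epcam* −0.05.

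Leaving out 1 sample at a time gave −0.34 to 0.35 for *Cldn1*, −0.67 to 0.56 for *Cldn3*, −0.58 to 0.88 for *Cldn4*, −0.65 to 0.53 for *Cldn7*, −1.18 to 0.14 for *Cldn8*, −0.61 to 0.62 for *Ocln*, −0.21 to 0.23 for *Tjp1* (−0.22 to 0.44 for its symbol row), −0.41 to 0.75 for *Cdh1* (0.02 to 0.54 for its symbol row), −0.45 to 0.61 for *Cdh3* and −0.53 to 0.67 for *Epcam*.

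Over all loci, 0 passed the adjusted threshold in the quasi-likelihood test, 8 in DESeq2, 6 in the exact test and 0 to 1 with 1 sample left out (1 without WT sample 1). Over all rows these counts were 0, 93, 31 and 0 to 2 (2 without WT sample 1, 1 without *fat-1* sample 1 and 1 without *fat-1* sample 2). At the unadjusted threshold, where 274 loci and 678 rows passed, the counts were 785 loci with the keratin covariate, 579 loci and 1136 rows without the filter, 542 loci without WT sample 3 and 482 without *fat-1* sample 1. The cause of these changes was not tested. The median log2 fold change of all loci stayed between −0.009 and 0.007 in every alternative. There were 3 pools per genotype with a 4.48-fold range of luminal keratin, and runs at lower depth were not made.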
